A study of Mus musculus with 20 samples.

Results

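The 6 mice with experimental autoimmune encephalomyelitis (EAE), a model of multiple sclerosis induced by immunising mice against myelin, were ordered by an interferon score and the 3 highest were set against the 3 lowest. The score of a mouse was the mean log2 expression of Ifit1, Ifit3, Rsad2, Usp18, Oasl2 and Rtp4 over its motor cortex and its sensory cortex array, with the brightest probe set of each gene. EAE mice 2, 5 and 4 formed the high group and EAE mice 3, 6 and 1 the low group. These are 12 of the 20 arrays of the series, and the other 8 come from 4 healthy mice. The groups were thus chosen on measured values of the same arrays. A difference between high and low mice is therefore described here without a test, apart from fits across regions. In these the arrays of a region were compared between mice split by the score of the other region. Either split gave the same 3 high mice, so the p-values of these fits are no separate evidence for a difference.

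All mice were female C57Bl6 of 8 to 12 weeks. EAE was induced with the peptide MOG35-55 of myelin oligodendrocyte glycoprotein. The flanks received 100 µg and the tail base 50 µg. Pertussis toxin followed at 400 ng, first on day 0 and again on day 3. The labels describe no injection for the healthy mice, which lived in the same cages, so that immunisation and disease cannot be told apart in a comparison with them. EAE tissue was taken after saline perfusion, on day 21 by the protocol and on days 18 to 21 by the sample labels, from mice with average clinical grades between 2.50 and 3.50. There were 2 cohorts of 3 EAE and 2 healthy animals, and each cohort held high and low mice (mouse 2 against mice 1 and 3 in cohort 1, and mice 4 and 5 against mouse 6 in cohort 2). Array medians lay between 8.22 and 8.32 on the log2 scale, and the correlation of any 2 arrays within a group was 0.988 to 0.998 over the probe sets. The number of mice limits the precision. In whole tissue, a change in the number of cells of a type cannot be told apart from a change in RNA per cell. Genes of excitatory neurons, the defining cells of cortex, were bright in every mouse, with a list mean of 12.66 to 12.81 in the healthy mice and 12.71 to 12.80 in the EAE mice.

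Interferons are cytokines that bind surface receptors and, through JAK kinases, activate STAT and IRF transcription factors. Type I interferons (interferon beta and the alphas) act mainly through a complex that holds STAT2 and IRF9 at the interferon-stimulated response element (ISRE) in target promoters, and interferon gamma acts mainly at the gamma-activated sequence (GAS). The target genes code for antiviral proteins, for large GTPases that attack the membranes of intracellular pathogens, and for the machinery that presents antigen to T cells. In the brain, microglia, astrocytes and endothelium all answer to interferon.

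The scores of the 3 high mice were 10.32 in mouse 2, 10.29 in mouse 5 and 9.56 in mouse 4. Those of the 3 low mice were 9.35 in mouse 3, 9.12 in mouse 6 and 8.83 in mouse 1. The healthy mice ranged from 8.52 to 8.78. The boundary fell in a narrow gap, since mouse 4, the lowest of the high group, lay 0.21 above mouse 3, the highest of the low group, but 0.73 below mouse 5. The high group's mean was 0.96 above that of the low group, or 1.94-fold, and the low group's mean was 0.48 above the healthy mean. Mouse 1 lay close to healthy mouse 1, whose sensory array (9.03) was 1 of 2 arrays processed on a second day. The same 3 mice were highest by the motor arrays alone, by the sensory arrays alone, without any 1 of the score genes and by 31 other interferon-induced genes.

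**Figure D1:**
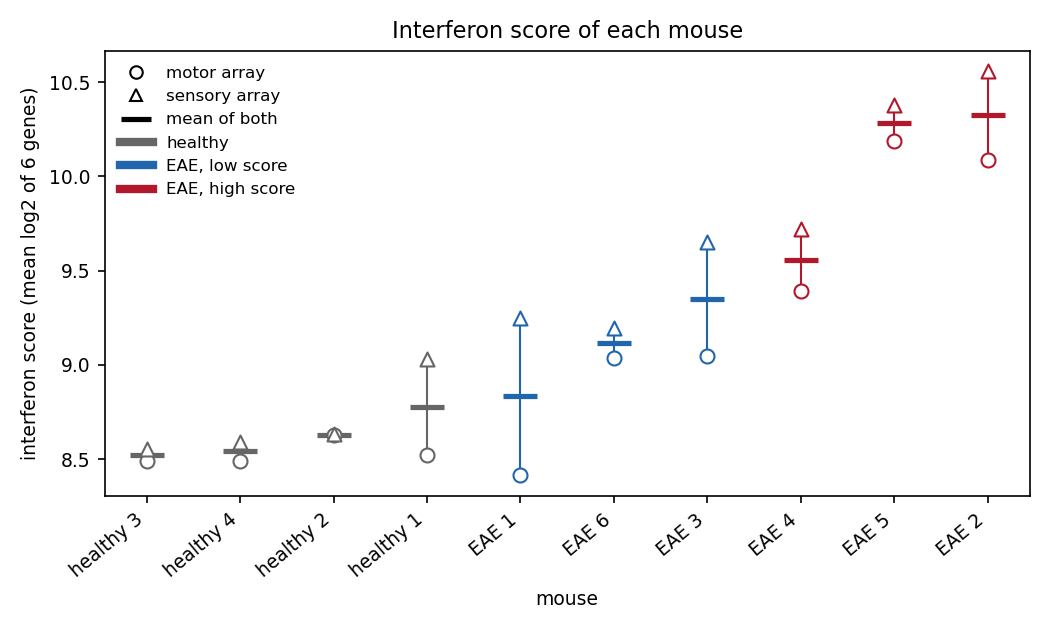
Interferon score (mean log2 of 6 genes) of the motor array (circle), the sensory array (triangle) and their mean (bar) in each of the 10 mice, ordered by score within healthy and EAE mice. EAE mice 2 and 5 stand apart at 10.32 and 10.29, EAE mice 4 and 3 are neighbours at 9.56 and 9.35, and EAE mouse 1 at 8.83 lies beside healthy mouse 1 at 8.78.

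The motor and sensory scores ranked the EAE mice nearly alike, but mice 2 and 5 changed places, as did mice 1 and 6. The sensory score was the higher in all 6 EAE and all 4 healthy mice, by 0.16 (mouse 6) to 0.84 (mouse 1) in EAE. Motor scores of mice 1 to 6 were 8.41, 10.09, 9.05, 9.39, 10.19 and 9.04, and sensory scores were 9.25, 10.56, 9.65, 9.72, 10.38 and 9.19. Over the 6 mice the motor and sensory scores correlated with Pearson's r of 0.929 (exact permutation p = 0.0153, Benjamini-Hochberg adjusted 0.0306 over 2 relations) and Spearman's rho of 0.886 (exact permutation p = 0.0333, adjusted 0.0667), both two-sided. Without mice 2 and 5, the farthest from the median, r was 0.679 over 4 mice, so the relation rests in part on those mice. It also missed the threshold without mouse 3 (r = 0.932, exact permutation p = 0.05) and without mouse 4 (r = 0.932, exact permutation p = 0.0583).

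The score was not shown to go with the clinical grade. Grades were 3.00, 3.50 and 3.00 in the high mice 2, 5 and 4 and 2.75, 3.50 and 2.50 in the low mice 3, 6 and 1. Pearson's r was 0.45 (exact permutation p = 0.367, adjusted 0.367) and Spearman's rho 0.412 (exact permutation p = 0.444, adjusted 0.444), two-sided over 6 mice, and r was 0.27 without mice 2 and 5. Leaving out a mouse moved r between 0.092 (without mouse 1) and 0.853 (without mouse 6). In cohort 1 the grades 2.50, 2.75 and 3.00 stood beside scores of 8.83, 9.35 and 10.32, and in cohort 2 the grades 3.00, 3.50 and 3.50 stood beside 9.56, 10.29 and 9.12. With 3 mice a cohort, the relation within cohorts was not tested.

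Among the score genes, Oasl2, a member of the oligoadenylate synthetase family, spread most, at 10.05, 10.54 and 8.91 in high mice 2, 5 and 4, at 8.66, 8.35 and 8.00 in low mice 3, 6 and 1, and between 7.65 and 8.00 in healthy mice. Ifit1, which binds foreign RNA ends, stood at 9.57, 9.44 and 9.24 in the high mice, 8.81, 8.57 and 8.29 in the low mice and 8.06 to 8.30 in healthy mice. Rsad2 (viperin), which makes a chain-terminating nucleotide, stood 0.67 higher in high mice. The antiviral receptor transporter Rtp4 stood 0.99 higher, Ifit3 0.88 higher and the ISG15 protease Usp18 0.85 higher. These 6 differences are what the rule selected. In the comparison of all EAE with healthy mice, limma called Ifit1 (0.86 ± 0.23, SE, log2, adjusted p = 0.0432), Ifit3 (1.02 ± 0.25, adjusted p = 0.032) and Usp18 (0.97 ± 0.26, adjusted p = 0.047) upward, and did not call Rsad2, Oasl2 and Rtp4. These calls were fragile. Each was lost without EAE mouse 4 or 5 and without any 1 of the healthy mice. Ifit1 and Usp18 also lost it without EAE mouse 2 or 3 and after quantile normalization, and Usp18 after array medians were subtracted. With the replicate number as a fixed block each call was lost too. Limma adjusted p reached 0.137 for Ifit1, 0.101 for Ifit3 and 0.123 for Usp18 over all alternatives.

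Over the 18188 genes outside the score, the 3 high mice lay all above the 3 low mice in the motor arrays and again in the sensory arrays for 148 genes (0.814%), and all below in both for 92 genes (0.506%). A gene of either kind is said to follow the score. The rule used this contrast and nothing is read from these percentages, but the sizes were uneven. At least 1.5-fold differences were found for 41 genes higher in high mice and for 0 lower, and at least 2-fold differences for 18 higher and 0 lower. The median high minus low difference of all genes was -0.02.

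The 3 largest differences between high and low mice were those of interferon-inducible GTPases (Iigp1, Gbp2 and Gbp6). Of 10 measured members, 8 followed the score, all higher in high mice, against 1.32% of all genes in either direction. The median difference of the 10 was 1.54 on the log2 scale (1.76 in motor and 1.30 in sensory arrays). Their median stood 1.88 above healthy in the high mice and 0.33 above healthy in the low mice. Within cohort 1 the median difference was 2.06 and within cohort 2 it was 1.38.

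Iigp1, an immunity-related GTPase that loads onto the vacuoles of intracellular parasites, stood at 11.00, 10.97 and 9.49 in high mice 2, 5 and 4, at 8.19, 8.17 and 8.60 in low mice 3, 6 and 1, and at 7.66 to 7.94 in the healthy mice. Gbp2, a guanylate-binding protein also used as a marker of reactive astrocytes, stood at 11.31, 10.71 and 10.00 in the high mice, at 8.36, 8.82 and 8.85 in the low mice and at 8.13 to 8.46 in the healthy mice. The high mice did not overlap the low mice for either gene, and the low mouse 3 lay within the healthy range for Gbp2. The order of the low mice was not that of their scores, since mouse 1, the lowest by score, was the highest of the low mice for both genes. That rested on its sensory array, which read 9.57 for Gbp2 and 9.47 for Iigp1, whereas its motor array read 8.13 and 7.72.

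Gbp6, another guanylate-binding protein, was 1.89 higher in high mice. The immunity-related GTPases Igtp, Irgm2 and Irgm1 were 1.70, 1.66 and 1.42 higher, Gbp3 1.34 and Ifi47 0.92 higher. Gbp7 and Gbp8 were 1.06 and 0.86 higher in mean, with overlap in the sensory arrays. In mouse 4 the GTPases were nearer to the low group than in mice 2 and 5. Their mean level was 9.29 in mouse 4, against 10.46 and 10.32 in mice 2 and 5, 8.45 to 8.57 in the low mice and 8.09 to 8.26 in the healthy mice. Limma called 0 of the 10 in EAE against healthy mice, a comparison in which it called 405 of 18194 genes upward (2.23%), and in which a gene that is high in only 3 of 6 EAE mice has a wide error (Gbp2, 1.36 ± 0.52, SE, log2, adjusted p = 0.132).

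Promoters of 4 of these genes show the letters that interferon-responsive promoters share. The 120 bases before the RefSeq start (GRCm38.p6) are given for the score gene Ifit1 (chr19:34640769-34640888, + strand) and, among the GTPases, for Gbp2 (chr3:142620543-142620662, + strand), Igtp (chr11:58199436-58199555, + strand) and Irgm1 (chr11:48871421-48871540, - strand). Capitals mark each match to an ISRE-like motif, which is GAAA, any 2 bases and GAAA again, on either strand. Ifit1 holds 2 matches, and the 2 matches in Irgm1 overlap.
Ifit1: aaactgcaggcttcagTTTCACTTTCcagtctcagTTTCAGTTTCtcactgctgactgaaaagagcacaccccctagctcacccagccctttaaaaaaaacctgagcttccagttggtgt
Gbp2: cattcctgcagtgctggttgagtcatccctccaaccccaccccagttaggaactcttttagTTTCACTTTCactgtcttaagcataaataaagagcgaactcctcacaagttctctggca
Igtp: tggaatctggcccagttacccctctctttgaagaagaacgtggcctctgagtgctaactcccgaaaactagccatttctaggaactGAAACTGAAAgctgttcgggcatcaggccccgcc
Irgm1: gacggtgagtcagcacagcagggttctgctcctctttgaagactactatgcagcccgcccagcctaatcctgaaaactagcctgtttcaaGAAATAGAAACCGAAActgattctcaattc

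In the window from 250 bases before to 50 after any of a gene's starts, 3.99% of 27025 RefSeq genes held the ISRE-like motif. Among the 14453 genes that are also on the array the share was 3.63%. It was found in 3 of the 4 score genes with a promoter in the table, in 6 of 7 GTPases and in 10 of the 32 genes with a promoter in the table among the 41 that followed the score upward by at least 1.5-fold, a set that shares GTPases with the list. A GAS-like motif (TTCNNNGAA, either strand) stood in 9.55% of the 27025 genes, in 3 of the 7 GTPases, in 9 of the 32 following genes and in 0 of the 4 score genes. Of the 13 genes called at least 1.5-fold higher in EAE that did not follow the score, 8 had a promoter in the table and 0 of these held either motif, a count too small to set against the shares of all genes. A match is a description of the letters in this window and shows no binding.

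A split by the score of 1 region was also tested in the arrays of the other region. Mice were split by their sensory scores and the motor arrays were compared, and the reverse. Either split gave the same 3 high mice, so the differences are those described above and the tests are no separate evidence for them. The arrays of a mouse come from 1 animal and are not fully independent. In the EAE mice their deviations correlated at -0.0579 (mouse 3) to 0.515 (mouse 2). The p-values thus lean on the choice of mice to an extent that was not tested. In the motor arrays limma called 13 of 18188 genes (0.0715%), all higher in the high mice, and 817 genes (4.49%) had an unadjusted p under 0.05. In the sensory arrays it called 0 (0%), with 707 genes (3.89%) at an unadjusted p under 0.05. The 13 genes were the GTPases Gbp2, Gbp6, Ifi47, Igtp, Iigp1 and Irgm2, the chemokine Ccl8, the activating Fc receptor Fcgr4, the secreted neuronal pentraxin Nptx2, the G-protein regulator Rgs2, Dmkn, Dpm3 and Htra4. Of these 13, 6 were among the 10 measured GTPases. The count was 0 without EAE mouse 1 or without mouse 3, 55 without mouse 4 and 41 without mouse 6. It was also 0 after quantile normalization, where 852 genes had an unadjusted p under 0.05, and 35 with a variance trend.

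In the motor arrays Gbp2 was 2.21 ± 0.21 higher in high mice (SE, log2, limma adjusted p = 0.00918), with a 95% interval of 1.76 to 2.67. Iigp1 was 2.26 ± 0.32 higher (adjusted p = 0.0358) and Igtp 2.05 ± 0.25 higher (adjusted p = 0.0197). Irgm1, at 1.59 ± 0.26, was not called (adjusted p = 0.0818). In the sensory arrays the estimates were smaller and wider, at 1.78 ± 0.48 for Gbp2, with an interval of 0.66 to 2.91, and at 2.07 ± 0.54 for Iigp1, each with an adjusted p of 0.988. All of the motor calls were lost without EAE mouse 1 or 3 and after quantile normalization. That of Iigp1 was also lost without mouse 2, with the cohort as a covariate and on the mean of all its probe sets, and their adjusted p reached 0.501 for Iigp1 and 0.234 for Gbp2 and Igtp over all alternatives.

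**Figure D2:**
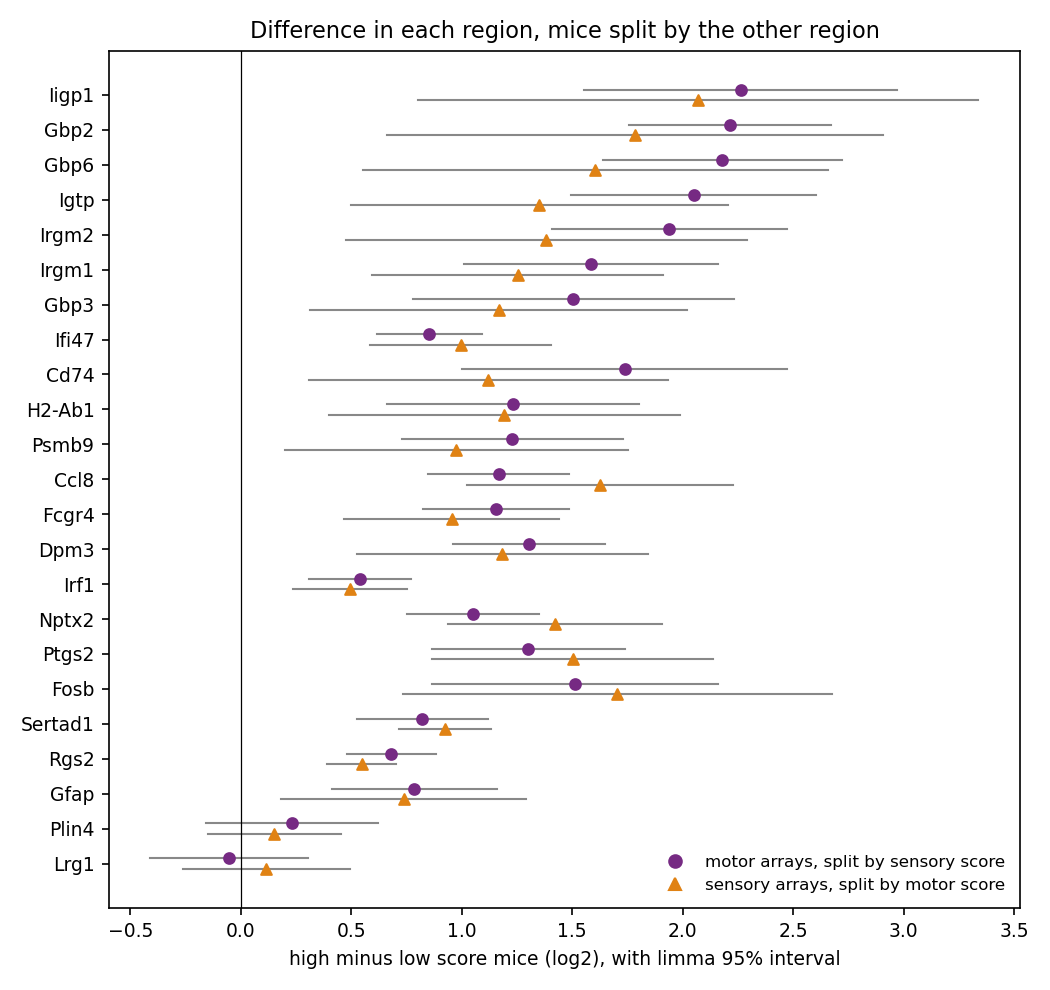
High minus low difference (log2) with its limma 95% interval for 23 genes, in the motor arrays with mice split by their sensory scores (circles) and in the sensory arrays with mice split by their motor scores (triangles). The GTPases reach 2.26 in motor arrays with wider intervals in sensory arrays, the intervals of Sertad1 and Rgs2 are narrow in both, and those of Plin4 and Lrg1 include 0 in both.

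Outside the GTPases the interferon programme differed less. Of 31 measured interferon effectors outside the score, 5 followed it (Ifitm3 0.95, Bst2 0.90, Parp14 0.62, Ifi35 0.61 and Trim30a 0.57 higher in high mice), against 1.32% of all genes. The median difference of the 31 was 0.29. Ifitm3, which blocks virus fusion, stood at 12.70, 12.91 and 12.18 in high mice 2, 5 and 4, at 11.72, 11.87 and 11.35 in low mice 3, 6 and 1 and at 11.04 to 11.30 in healthy mice. Bst2 (tetherin), which holds virus particles on the cell surface, stood at 9.82, 9.91 and 9.07 in the high mice, 8.77, 8.83 and 8.48 in the low mice and 8.13 to 8.50 in healthy mice. Every EAE mouse was above every healthy mouse for Ifitm3, whereas low mouse 1 lay within the healthy range for Bst2. Ifi27l2a, at 9.37, 9.51 and 8.81 in the high and 8.35, 8.73 and 8.06 in the low mice, was 0.85 higher in high mice, without overlap in mouse means or sensory arrays but with overlap in the motor arrays. In EAE against healthy mice limma called 7 of the 31 upward, against 2.23% of all genes. Among the 7 were Ifi27l2a (1.30 ± 0.25, SE, log2, adjusted p = 0.0139) and Ifitm3 (0.97 ± 0.26, adjusted p = 0.0465). The call of Ifi27l2a was lost without healthy mouse 3 or 4 (adjusted p up to 0.0599 over all alternatives), and that of Ifitm3 without any 1 of the healthy mice or EAE mouse 2, 4, 5 or 6 (up to 0.149). Ifitm3 also lost it after array medians were subtracted and with the replicate number as a fixed block.

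Transcripts of the signalling chain and of the interferons themselves differed little in the median of each list. Of 15 measured signalling and regulatory factors, 2 followed the score, against 1.32% of all genes, and the median difference was 0.09. Irf1, a transcription factor induced by interferon gamma, stood at 10.35, 10.31 and 10.14 in high mice 2, 5 and 4, at 9.77, 9.75 and 9.72 in low mice 3, 6 and 1 and at 9.53 to 9.69 in healthy mice. Stat2, a transcription factor of type I signalling, was 0.42 higher in high mice, and Irf9, the DNA-binding subunit of that complex, was 0.56 higher with overlap in 1 region. Of 5 measured interferon genes 0 followed, as is usual in a list this short at that share of all genes, with a median difference of -0.13. Ifnb1 had means of 6.96 in the high, 7.20 in the low and 6.92 in the healthy mice. Ifng lay at 5.07 to 5.34 in the high, 4.98 to 5.17 in the low and 5.07 to 5.16 in the healthy mice, which overlap. Both genes lie below the array medians.

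Antigen presentation followed in part. MHC class II molecules, which present peptides to helper T cells, were 1.13 higher in high mice in the median of 6 measured genes. Of the 6, 2 followed the score, against 1.32% of all genes. Cd74, the invariant chain that guides class II molecules, stood at 11.65, 11.95 and 10.46 in high mice 2, 5 and 4, at 9.73, 10.12 and 9.92 in low mice 3, 6 and 1 and at 8.61 to 8.77 in healthy mice. H2-Ab1, the class II beta chain, stood at 9.90, 10.39 and 9.03 in the high mice, 8.43, 8.77 and 8.48 in the low mice and 7.68 to 8.01 in healthy mice. Every low mouse was above every healthy mouse for both genes, as for the GTPases Iigp1 and Gbp6 but not for Gbp2. H2-Aa, the alpha chain, was 1.76 higher in high mice with overlap in 1 region.

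The class II genes were also among those that separated EAE from healthy mice as a whole. Limma called 4 of the 6 upward, against 2.23% of all genes. Cd74 rose by 1.94 ± 0.41 (SE, log2, adjusted p = 0.0184), H2-Aa by 2.42 ± 0.51 (adjusted p = 0.0193) and H2-Ab1 by 1.36 ± 0.35 (adjusted p = 0.04). Cd74 and H2-Aa lost the call without healthy mouse 3 or 4 (adjusted p up to 0.0708 and 0.0762 over all alternatives), and H2-Ab1 after quantile normalization and without any 1 healthy mouse or EAE mouse 2 or 4 (up to 0.133). In the motor arrays of mice split by sensory score, Cd74 stood at 1.74 ± 0.33 and was not called (adjusted p = 0.178).

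Of 13 measured genes of class I presentation, 4 followed the score, namely the immunoproteasome subunit Psmb9 (1.10 higher in high mice), the peptide transporter subunit Tap1 (0.95, but -0.09 to 0.22 in its 3 other probe sets), tapasin, Tapbp (0.50), and the class I light chain B2m (0.30). The share of all genes that followed was 1.32%, and the median difference of the 13 was 0.43. H2-D1, a class I heavy chain, differed by 0.43 in its brightest probe set and by -0.24 to 0.59 in the 8 others. Nlrc5, the transactivator of class I genes, stood at 9.00, 9.13 and 8.08 in high mice 2, 5 and 4, at 7.50, 7.50 and 7.55 in the low mice and at 6.77 to 7.08 in healthy mice. Limma called 4 of the 13 upward in EAE, against 2.23% of all genes, with H2-K1 at 0.98 ± 0.19 (SE, log2, adjusted p = 0.0143) and H2-D1 at 0.79 ± 0.14 (adjusted p = 0.00965). H2-K1 lost the call without healthy mouse 3 or 4 (adjusted p up to 0.061 over all alternatives), and H2-D1 kept it under each alternative.

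Chemokines and myeloid receptors were mixed. Ccl8, which attracts monocytes and T cells, was nearly alike in the high mice, at 9.65, 9.65 and 9.84 in mice 2, 5 and 4, against 8.02, 8.60 and 8.33 in low mice 3, 6 and 1 and 7.58 to 7.95 in healthy mice. Its difference was 1.17 ± 0.14 in the motor arrays (SE, log2, limma adjusted p = 0.0197) and 1.63 ± 0.26 in the sensory arrays (adjusted p = 0.988). Fcgr4 stood at 9.72, 9.78 and 9.12 in the high mice, 8.50, 8.61 and 8.34 in the low mice and 7.48 to 7.86 in healthy mice, and was 1.15 ± 0.15 higher in the motor arrays (adjusted p = 0.0197). Both motor calls were lost without EAE mouse 1 or 3, and that of Fcgr4 also without mouse 2 and with the cohort as a covariate, with adjusted p up to 0.492 for Ccl8 and 0.261 for Fcgr4 over all alternatives. Of 12 other chemokines 1 followed, namely Ccl2 (0.38), against 1.32% of all genes, and the median difference was 0.25. Ccl12 and Cxcl10, ligands of CCR2 and of CXCR3, were 1.33 and 1.05 higher in high mice with overlap in the sensory arrays. Ccl12 rose in EAE under each alternative (1.88 ± 0.35, SE, log2, limma adjusted p = 0.0114).

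Of 20 genes of activated microglia and macrophages, 3 followed the score (the oxidase subunit Cybb 0.76, the Fc receptor Fcgr1 0.61 and its signalling chain Fcer1g 0.45 higher), against 1.32% of all genes. The median of the 20 was 0.24. Cd52, a small surface glycoprotein of leukocytes, was 0.79 higher in high mice with overlap. Of 8 measured complement genes 0 followed, which at that share of all genes is usual for a list this short, and their median was 0.33. C1qb, a chain of the first component, was 0.50 higher, with overlap in the sensory arrays only. Among 14 reactive astrocyte genes, 3 followed, Gbp2, Aspg and Gfap, against 1.32% of all genes. Gfap, the intermediate filament of astrocytes, stood at 11.92, 11.59 and 11.19 in high mice 2, 5 and 4, at 10.60, 11.12 and 10.69 in low mice 3, 6 and 1 and at 10.21 to 10.47 in healthy mice. Serpina3n, a protease inhibitor of reactive astrocytes, overlapped instead, at 9.64 to 9.95 in the high mice, 9.56 to 9.81 in the low mice and 9.04 to 9.54 in healthy mice.

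Some genes that are not known chiefly as interferon targets also followed the score. Nptx2, released by neurons at excitatory synapses, stood at 11.19, 10.66 and 10.92 in high mice 2, 5 and 4, at 9.79, 9.39 and 9.89 in low mice 3, 6 and 1 and at 9.53 to 10.25 in healthy mice. The low mice thus overlapped the healthy mice, as they did for Gbp2 and Bst2, and all high mice were above both. It was 1.05 ± 0.14 higher in the motor arrays (SE, log2, limma adjusted p = 0.0197) and 1.42 ± 0.21 in the sensory arrays (adjusted p = 0.883). Ptgs2 (cyclooxygenase 2), the inducible enzyme of prostaglandin synthesis, stood at 9.12, 9.91 and 9.06 in the high mice, 7.91, 8.09 and 7.88 in the low mice and 7.76 to 7.88 in healthy mice.

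Rgs2 stood at 12.25, 12.30 and 12.17 in high mice 2, 5 and 4, at 11.63, 11.57 and 11.68 in low mice 3, 6 and 1 and at 11.53 to 11.70 in healthy mice. The low mice overlapped the healthy mice here too. It was called in the motor arrays (0.68 ± 0.09, SE, log2, limma adjusted p = 0.0232) and stood at 0.55 ± 0.07 in the sensory arrays (adjusted p = 0.56). Sertad1, a cell-cycle and transcription cofactor, stood at 10.58, 10.74 and 10.94 in the high mice, 9.82, 9.91 and 9.91 in the low mice and 9.93 to 10.05 in healthy mice, and was called in neither region (adjusted p = 0.0801 in motor and 0.225 in sensory arrays). The neurotrophin Bdnf was 0.51 higher in high than in low mice and the cytokine Metrnl 0.76 higher. The motor calls of Nptx2 and Rgs2 were lost without EAE mouse 1, 2 or 3, and that of Rgs2 also without mouse 5 and on the mean of all its probe sets, with adjusted p up to 0.282 for Nptx2 and 0.234 for Rgs2 over all alternatives.

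Immediate early genes, which neuronal activity induces, were mixed among the high mice. Fosb, an AP-1 subunit, stood at 10.04, 11.56 and 10.29 in high mice 2, 5 and 4, at 9.32, 8.80 and 8.95 in low mice 3, 6 and 1 and at 8.59 to 9.02 in healthy mice, and was the only 1 of 11 measured members to follow. Fos, its relative, stood at 11.08, 13.33 and 12.43 in the high mice, at 12.22, 11.97 and 12.27 in the low mice and at 11.62 to 12.30 in healthy mice. High mouse 2 was the lowest of all mice for Fos, and Arc, a synaptic plasticity gene, was lowest there too, at 11.26 against 11.92 to 12.84 elsewhere. The list's mean level was 10.20 in mouse 2, 11.69 in mouse 5 and 11.21 in mouse 4, against 10.81 to 10.95 in the low mice and 10.56 to 11.11 in healthy mice. Mice 5 and 4 thus stood above every low and healthy mouse, and mouse 2 stood below them. Whether neuronal activity differed between the groups was not tested. The share of all genes that followed was 1.32%, and the list's median difference was -0.08.

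Genes lower in high mice differed by less. Ky, a muscle protein gene, had the most negative difference of those that followed, at -0.54, with 7.57, 7.57 and 7.72 in high mice 2, 5 and 4, 8.03, 8.28 and 8.18 in low mice 3, 6 and 1 and 7.75 to 7.99 in healthy mice. The 1 other probe set of Ky differed by -0.24 between high and low mice and stood 0.11 above healthy in the mean of the EAE mice. The kinase genes Phkg1 and Dapk2 differed by -0.35 and -0.33. Ky was not called in the motor arrays (-0.67 ± 0.10, SE, log2, limma adjusted p = 0.0567) or in the sensory arrays (-0.41 ± 0.10, adjusted p = 0.988). A larger negative difference that overlapped in both regions was that of Fcrls, a microglial Fc receptor-like gene, at -0.75.

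The second question was which of the changes between EAE and healthy mice go with the score. With the cohort as a covariate, limma called 1431 of 18194 genes (7.87%), 405 higher and 1026 lower in EAE (2.23% and 5.64%). The count ranged from 472 (without healthy mouse 4) to 1813 (without EAE mouse 1) when a mouse was left out, and fell to 563 without healthy mouse 3, 691 without healthy mouse 2, 766 without healthy mouse 1 and 779 without EAE mouse 5. After quantile normalization it was 450 higher and 603 lower, so the balance of rises and falls depends on the scaling. Of the 1428 called genes outside the score, 24 followed it with a larger EAE change in the high mice, which were 15 of 402 rises (3.73%) and 9 of 1026 falls. In 1 called fall, Klf10, the high mice were nearer to healthy, so that 10 of the 1026 falls followed in either direction. The share of all genes that followed in either direction was 1.32%, and the share among the falls was below it. Nothing is read from that lower share, since a call favours genes with little spread among the EAE mice.

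A called change is said here not to follow the score if high and low mice overlapped, their means differed by under 0.25 of the EAE change, and neither group overlapped the healthy mice. By that rule 152 of the 402 rises (37.8%) and 452 of the 1026 falls (44.1%) did not follow, and 235 and 564 lay between. Over all genes 4.8% met the same rule, but a call itself favours genes with little spread among EAE mice and no overlap with healthy mice, so nothing is read from the excess. Among the 46 called rises of at least 1.5-fold, 8 followed, 13 did not and 25 lay between, with a median of 1.24 above healthy in the high mice and 0.72 in the low mice. Among the 44 called falls of at least 1.5-fold, 0 followed, 21 did not and 22 lay between, with medians of -0.72 and -0.62, and the remaining 1 is Klf10. The number that followed was 2 without healthy mouse 3, 3 without healthy mouse 4, 9 without healthy mouse 1 or 2, 90 without EAE mouse 3, 88 without EAE mouse 4, 65 without EAE mouse 6 and 55 without EAE mouse 1. The number that did not was 388 without EAE mouse 5, and 385, 335 and 291 without healthy mice 2, 3 and 4.

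A call is harder to reach for a gene that varies among the EAE mice, and the counts have to be read with that. A further 36 genes were at least 1.5-fold higher in EAE in mean but not called. Of these, 21 followed the score (58.3%) and 0 were of the kind that does not. This is a description, since an uncalled gene of that size had to vary among the EAE mice and could reach 1.5-fold through the high mice alone. Their median stood 1.20 above healthy in the high mice and 0.37 in the low mice, and their median SD over the EAE mice was 0.62, against 0.39 for the called rises of that size. The uncalled group is where the GTPases lie.

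**Figure D3:**
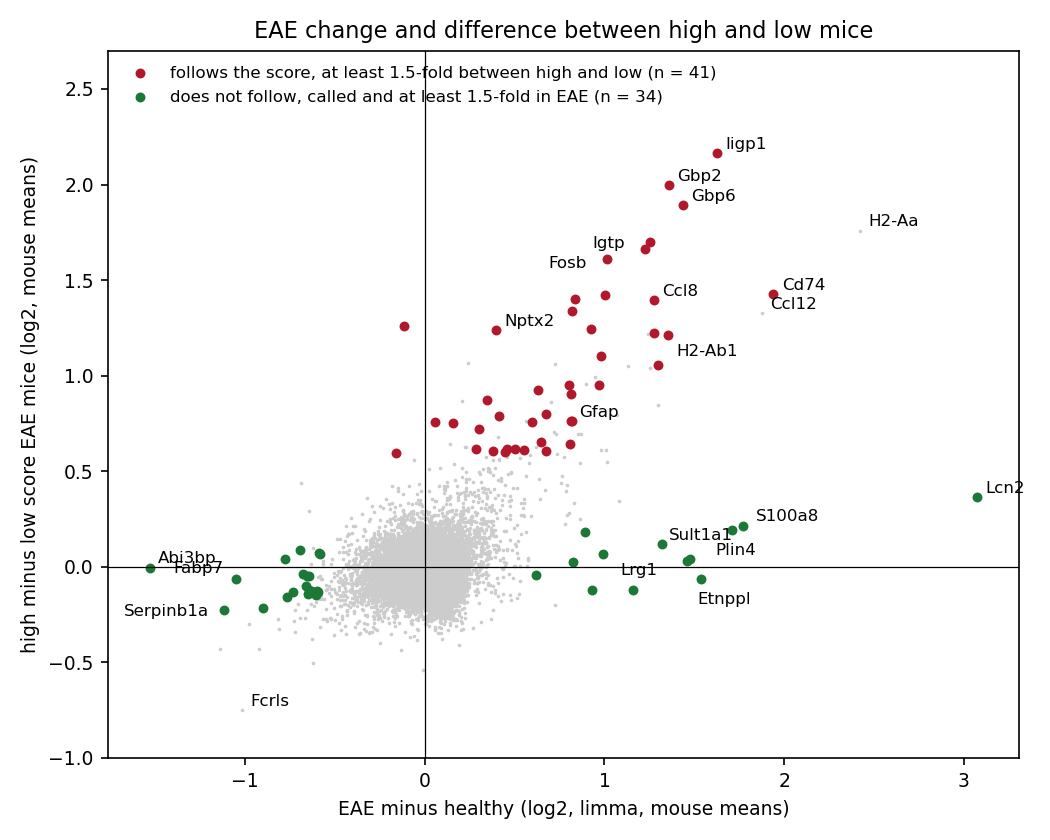
Each point is 1 of 18188 genes outside the score, with the EAE minus healthy change (log2, limma, mouse means) on the horizontal and the high minus low difference among EAE mice (log2) on the vertical axis. The 41 genes that follow the score with at least a 1.5-fold difference (red) reach up to Iigp1 at 2.17, and the 34 called changes of at least 1.5-fold that do not follow (green) lie near 0 on the vertical axis, with Abi3bp at an EAE change of -1.53 and Lcn2, at 0.37 between high and low, at 3.07.

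The 15 called rises that followed were of several kinds. They held the class II genes Cd74 and H2-Ab1, the light chain B2m, the chemokines Ccl2 and Ccl8, the receptor Fcgr4 and the interferon-induced Ifitm3 and Ifi209, and outside these groups Ankrd33b, Crispld2, Gm34996, Lonrf3, Myo1e, Npr3 and Syn3. Some of these EAE calls were fragile. Ccl8 lost its call after quantile normalization, without any 1 healthy mouse and without EAE mouse 2, 4 or 5 (limma adjusted p up to 0.139 over all alternatives), B2m without any 1 healthy mouse or EAE mouse 2 (up to 0.0979), and Fcgr4 without healthy mouse 2, 3 or 4 (up to 0.0726). Syn3, a synapsin of synaptic vesicles, had means of 10.89 in high, 10.43 in low and 10.03 in healthy mice. The 9 falls that followed included Slit2, a guidance cue that fell by 0.47 ± 0.07 (SE, log2, limma adjusted p = 0.00596), with means of 10.18 in high, 10.38 in low and 10.75 in healthy mice. Klf10, a zinc-finger factor induced by transforming growth factor beta, stood at 10.01, 10.22 and 10.32 in high mice 2, 5 and 4, at 9.34, 9.90 and 10.00 in low mice 3, 6 and 1 and at 10.48 to 10.91 in healthy mice. It fell by 0.69 ± 0.15 in EAE (SE, log2, limma adjusted p = 0.0195), and the call was lost without healthy mouse 1, 2 or 3 (adjusted p up to 0.077 over all alternatives).

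Among the genes whose EAE rise did not follow, Lrg1, a secreted glycoprotein of activated endothelium, stood at 9.03, 9.21 and 9.43 in high mice 2, 5 and 4, at 9.16, 9.49 and 8.92 in low mice 3, 6 and 1 and at 7.62 to 7.86 in healthy mice. It rose by 1.46 ± 0.08 in EAE (SE, log2, limma adjusted p = 2.53e-05), and the high and low means of 9.22 and 9.19 differed by 0.03. In the motor arrays split by sensory score its difference had a 95% interval of -0.41 to 0.30. In the sensory arrays split by motor score the interval was -0.26 to 0.49. Both intervals reach from lower to higher in the high mice, so they do not show that a difference is absent. Plin4, a coat protein of lipid droplets, stood at 9.49, 9.51 and 9.41 in the high mice, 9.45, 9.44 and 8.93 in the low mice and 7.37 to 7.83 in healthy mice, and rose by 1.71 ± 0.11 (adjusted p = 0.000109).

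The sulfotransferase gene Sult1a1 rose by 1.48 ± 0.13 (SE, log2, limma adjusted p = 0.000958), with means of 10.47 in high, 10.43 in low and 8.97 in healthy mice. Etnppl, an astrocyte enzyme that degrades phosphoethanolamine, rose by 1.54 ± 0.11 (adjusted p = 0.000142), with means of 11.74, 11.81 and 10.24. Its 1 other probe set also rose in EAE, by 0.57, but was -0.59 between high and low mice, so the probe sets differ on the split. Xdh, xanthine dehydrogenase, and the matrix protein Matn2 rose by 0.99 ± 0.12 (adjusted p = 0.00224) and 0.89 ± 0.07 (adjusted p = 0.000227), with high minus low differences of 0.07 and 0.18.

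Lcn2, the iron-siderophore carrier lipocalin 2, had the largest EAE change of all genes tested and varied widely among the EAE mice, but not with the score. It stood at 7.99, 8.20 and 9.46 in high mice 2, 5 and 4, at 6.42, 9.81 and 8.33 in low mice 3, 6 and 1 and at 5.20 to 5.37 in healthy mice, and rose by 3.07 ± 0.44 (SE, log2, limma adjusted p = 0.00394). The highest and the lowest EAE mouse, 6 and 3, were both in the low group. S100a8 and S100a9, the subunits of calprotectin from neutrophils and monocytes, were also highest in mouse 6, at 8.87 and 9.18, and their EAE rises were 1.77 ± 0.21 (adjusted p = 0.00224) and 1.32 ± 0.27 (adjusted p = 0.0166). S100a9 lost its call without healthy mouse 3 or 4 (adjusted p up to 0.0704 over all alternatives). The high minus low differences of S100a8 and S100a9 were 0.22 and 0.12.

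**Figure D4:**
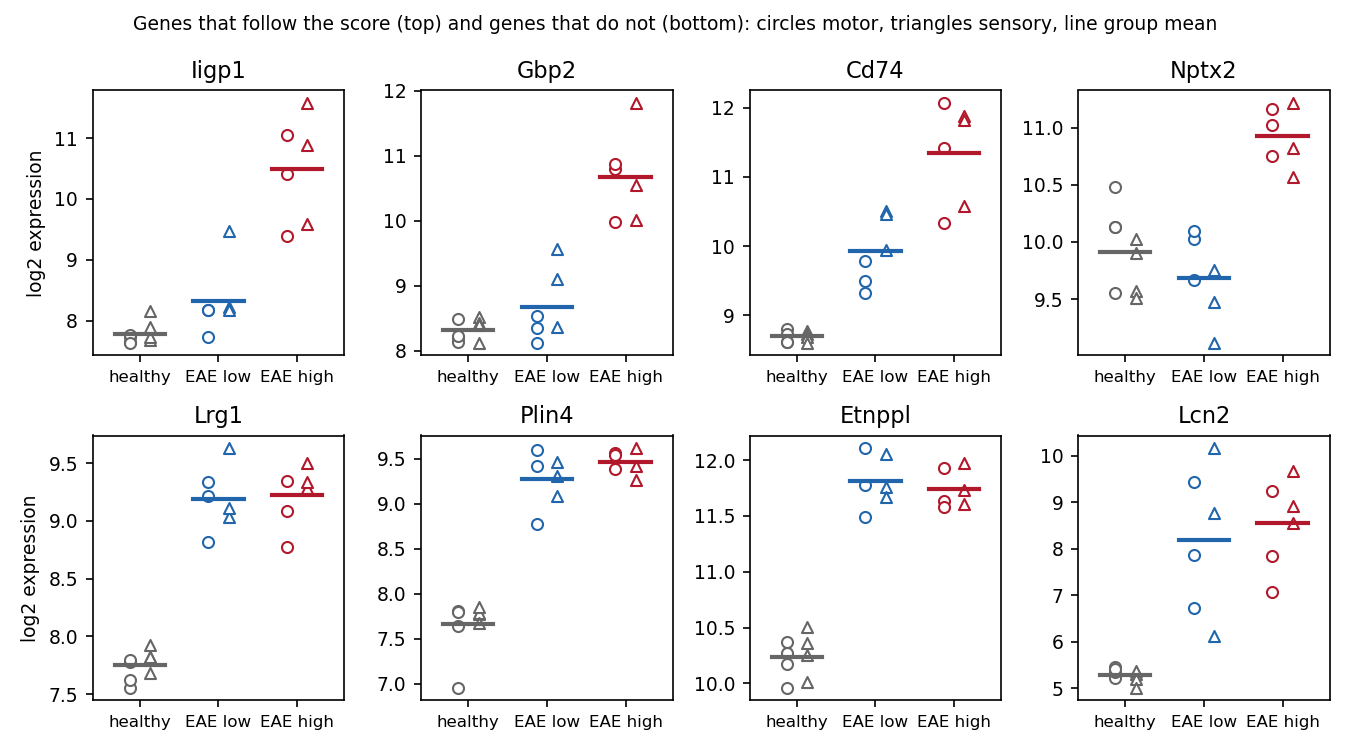
Log2 expression of 8 genes in the motor (circles) and sensory (triangles) arrays of 4 healthy mice, 3 low-score and 3 high-score EAE mice, with a line at each group mean. Iigp1, Gbp2, Cd74 and Nptx2 (top) are separated between the EAE groups in both regions, whereas Lrg1, Plin4, Etnppl and Lcn2 (bottom) are above healthy in both EAE groups, with means of 9.22 and 9.19 for Lrg1.

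Several of the largest falls in EAE did not follow the score either. Abi3bp, an extracellular matrix protein, fell by 1.53 ± 0.16 (SE, log2, limma adjusted p = 0.00224), with means of 6.97 in high and 6.97 in low mice against 8.50 in healthy mice, although single mice ranged from 6.30 in mouse 3 to 7.32 in mouse 6. Fabp7, the fatty acid binding protein of astrocytes and progenitors, fell by 1.05 ± 0.11 (adjusted p = 0.00224), with means of 10.02, 10.08 and 11.10. Serpinb1a, a protease inhibitor, fell by 1.12 ± 0.16 (adjusted p = 0.00418), with a high minus low difference of -0.22. Its 1 other probe set changed by -0.14 in EAE and by 0.13 between high and low mice. Ighm, the immunoglobulin mu chain, fell by 0.90 ± 0.15 (adjusted p = 0.00707) with a difference of -0.22, but 2 of its 10 other probe sets had the same sign in EAE, and the call was lost on their mean (adjusted p up to 0.419 over all alternatives).

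In their list's median, homeostatic microglial genes stood below healthy in both groups. Of 11 measured members, limma called 7 lower in EAE, against 5.64% of all genes. None followed the score, as is usual in a list this short where 1.32% of all genes follow. The medians relative to healthy were -0.40 in the high and -0.32 in the low mice. P2ry12, the purine receptor of resting microglia, stood at 9.66, 9.54 and 9.90 in high mice 2, 5 and 4, at 9.78, 10.04 and 10.19 in low mice 3, 6 and 1 and at 10.65 to 10.98 in healthy mice. Gpr34, a lysophosphatidylserine receptor, stood at 7.37, 7.25 and 7.56 in the high mice, 7.39, 7.98 and 8.10 in the low mice and 8.68 to 8.93 in healthy mice. In both, the low mouse 3 lay within the high group. They fell by 0.98 ± 0.12 (SE, log2, limma adjusted p = 0.00247) and 1.14 ± 0.16 (adjusted p = 0.00371), and the high minus low differences were -0.30 and -0.43.

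Fcrls was lower in mice with higher scores, with overlap of the groups, at 9.12, 8.79 and 9.83 in high mice 2, 5 and 4, 9.59, 10.19 and 10.21 in low mice 3, 6 and 1 and 10.62 to 10.66 in healthy mice. With the sensory score as a continuous term in place of the groups, limma called 21 genes in the motor arrays, 20 upward and 1 downward, and the 1 was Fcrls, at -1.03 ± 0.13 per log2 of score. Of the 13 genes called between the groups 5 were shared with the 21. The 21 also held H2-Aa, Cd74 and Nlrc5. In the sensory arrays the continuous fit called 0, and Fcrls was called in neither region between the groups (adjusted p = 0.962 in motor and 0.988 in sensory arrays). Tmem119, a microglial surface protein, and Cx3cr1, the fractalkine receptor, were called lower in EAE but differed by 0.13 and 0.01 between high and low mice.

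Endothelial activation and acute phase genes made up the list with most EAE calls. Of 18 measured members limma called 12 upward, against 2.23% of all genes. None followed the score, as is usual in a list of this length where 1.32% of all genes follow. The medians stood 0.41 above healthy in the high and 0.33 in the low mice. Vwf, the clotting factor carrier of endothelium, rose by 0.78 ± 0.10 (SE, log2, adjusted p = 0.00285), with a high minus low difference of 0.22. Of 11 neutrophil and monocyte genes 6 rose and 0 followed, with medians of 0.39 above healthy in high and 0.49 in low mice. Of 16 glucocorticoid-responsive genes 5 rose and 1 followed, the cell-cycle inhibitor Cdkn1a (0.57), and the medians were 0.32 and 0.36. Fkbp5, the steroid receptor cochaperone, rose by 1.08 ± 0.14 (adjusted p = 0.00321), with a difference of 0.34.

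Oligodendrocyte genes were lower than healthy in both groups' medians. Of 11 measured genes of mature oligodendrocytes 6 fell, against 5.64% of all genes, and 0 followed. Where 1.32% of all genes follow, this list and the others of this paragraph would each mostly hold none. The medians were -0.45 in the high and -0.29 in the low mice. Ugt8a, which makes galactosylceramide of myelin, fell by 0.66 ± 0.09 (SE, log2, limma adjusted p = 0.00353) with a difference of -0.23, and Mbp, a myelin structural protein, was not called and differed by 0.02 (-0.17 to -0.02 in its 7 other probe sets). Precursor genes (7 measured) and cholesterol synthesis genes (10 measured) had medians of -0.18 and -0.20 in high and -0.15 and -0.20 in low mice, and 0 followed. Endothelial barrier genes (14 measured) stood at medians of -0.06 in high and -0.26 in low mice, with 6 called lower and 1 higher in EAE and 0 that followed.

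Neuronal genes differed little between high and low mice in the median of each list. Of 9 excitatory, 12 inhibitory, 9 synaptic and 12 oxidative phosphorylation genes, 0 followed the score, which at 1.32% of all genes says nothing particular to these lists. The median differences were 0.00, -0.03, -0.01 and -0.01. Slc17a7, the vesicular glutamate transporter of excitatory neurons, differed by 0.10. Of 13 astrocyte identity and 9 mural genes 0 followed, with a median of -0.02 for the astrocyte list, and of 11 heat and hypoxia genes 1 did, the growth factor gene Vegfa (0.29), with a median of 0.08.

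Among markers of cells that a dissection could bring in or blood could carry, 5 lists had similar levels in high and low mice. The mean level of 13 T cell genes was 7.79 to 7.89 in high, 7.82 to 7.92 in low and 7.67 to 7.82 in healthy mice, and limma called 2 of them, Cd3g and Cd2, upward in EAE, against 2.23% of all genes. That of 7 B and plasma cell genes was 7.87 to 7.95, 7.92 to 8.05 and 8.00 to 8.10. The choroid plexus list (7 genes) stood at 7.37 to 7.47, 7.43 to 7.58 and 7.36 to 7.39, the meningeal list (8 genes) at 9.17 to 9.60, 9.22 to 9.48 and 9.13 to 9.41, and the blood list (4 genes) at 6.33 to 6.47, 6.38 to 6.51 and 6.32 to 6.42. The median differences of these 5 lists lay between -0.10 and 0.03. Of their genes 0 followed the score, against 1.32% of all genes, a share at which lists this short would mostly hold none. The neutrophil and monocyte list (11 genes), also of cells that could enter from blood, was above healthy in both groups. It stood at 7.82 to 8.17 in high, 7.67 to 8.16 in low and 7.19 to 7.31 in healthy mice.

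**Figure D5:**
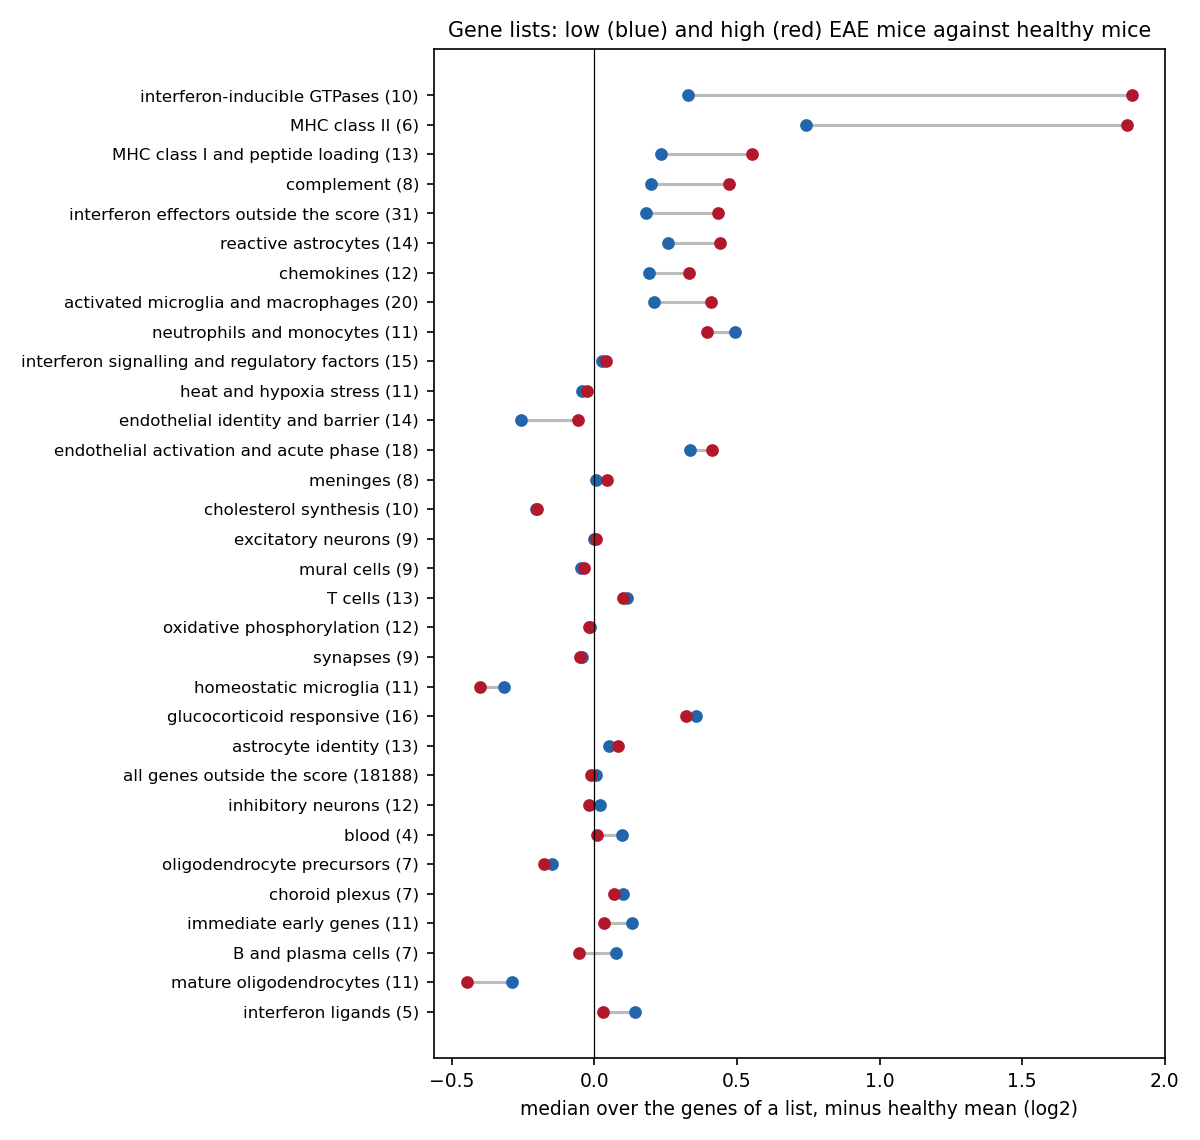
Median over the measured genes of each list (number in brackets) of the difference from the healthy mean (log2), for the 3 low-score (blue) and the 3 high-score (red) EAE mice. The GTPases (0.33 and 1.88) and MHC class II (0.74 and 1.87) are far apart, while endothelial activation (0.33 and 0.41), glucocorticoid-responsive (0.36 and 0.32) and neutrophil genes (0.49 and 0.39) are displaced from 0 by similar amounts in both groups.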

How the data were processed

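Expression was measured on Affymetrix arrays in motor and sensory cortex of 6 EAE and 4 healthy mice. Values were deposited as log2 expression. The submitters' processing notes name RMA and Partek; neither version is given in the sources used here. RMA compresses small differences at low signal. Of 45101 probe sets, 34958 had 1 gene symbol in the platform annotation, 932 had several and 9211 were not listed there. By Entrez identifier 34754 matched RefSeq (GRCm38.p6). The brightest probe set on average stood for each of 18194 genes.

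A mouse's arrays were averaged for EAE against healthy (two-sided limma fit with eBayes and the cohort as covariate, limma 3.58.1, R 4.3.3, Benjamini-Hochberg adjusted p under 0.05). Each region's arrays were also compared between mice split by the other region's score. Every adjusted p of a gene is from limma. The fits were tested on simulated data. Animal numbers in the labels tie each motor array to the sensory array of the same animal; their deviations from group means correlated at 0.0028 to 0.589, except EAE mouse 3 at -0.0579. A number shared by an EAE and a healthy mouse marks no common animal and pairs nothing. Nothing says more about the independence of mice than their cohorts and cages.

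The score, the 31 gene lists (357 of 394 entries measured) and the rule for named genes were chosen with earlier results of these data known. The rule took the score genes, the 10 largest and 10 most negative high minus low differences among genes that follow, the 10 largest called rises and falls, up to 4 members of each list by absolute difference with a fixed set, and the genes of smallest p in each cross-region fit (10 where any was called, otherwise 5). Other genes named, such as Dmkn, Bdnf, Metrnl, Klf10, Slit2, Syn3, Xdh and Matn2, were chosen after their values were seen. Alternatives were other normalizations, probe set rules, filters, covariates and left-out mice.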

Additional observations from a re-analysis of the deposited data

Results flagged for a closer look

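Of 94 groups of 4 or 6 values examined, 4 held a mouse far from the others of its group, and chance flags about 1 in 20 groups. The sensory score of healthy mouse 1 was 9.03, with the next healthy mouse at 8.63, and its Ifit1 level was 8.30, with the next at 8.09. That mouse's sensory array was processed on the second day. Plin4 stood at 8.93 in EAE mouse 1, with the next EAE mouse at 9.41. Gpr34 stood at 8.93 in healthy mouse 2, with the next at 8.69.

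For 11 genes (0.0605%) all high mice lay on 1 side of every healthy mouse and all low mice on the other. Of the named genes these were Ky, which stood at -0.28 in high and 0.26 in low mice relative to healthy mice, and Sertad1, at 0.78 and -0.09. The difference between the groups' distances from healthy was not tested.

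Among 10092 probe sets without a single gene symbol, which no comparison above uses, 36 followed the score upward and 53 downward. Of these, 4 were at least 2-fold higher in high mice and above every healthy mouse, with a largest difference of 1.49 on the log2 scale.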

How the results depend on the processing

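The number of mice, 3 in each score group, limits the precision. The same 3 high mice were found under every alternative score. The number of genes that followed was 240 and ranged from 462 to 1010 when 1 mouse was left out, since fewer mice overlap less. In the motor arrays the 13 calls became 0 after quantile normalization, 35 with a variance trend and 21 with a continuous score, and 0 to 55 with a mouse left out. In the sensory arrays the 0 calls became 2 with a trend and 0 to 2 with a mouse left out. EAE calls (1431) ranged from 472 to 1813 with a mouse left out. With the mouse as a random replicate block over 20 arrays 2088 were called, and with the replicate number as a fixed block of mice 1 to 4, which pairs different animals, 919. The 24 EAE changes that followed became 172 by non-overlap of mouse means alone and 2 to 90 with a mouse left out, and the 604 that did not follow 291 to 786. The correlation of motor with sensory score stayed between 0.906 and 0.971 with a mouse left out. Signs turned only for differences near 0: Lrg1 between groups was -0.00047 in sensory arrays with cohort as covariate, and with a mouse left out Lrg1 ranged from -0.21 to 0.094 and Plin4 from -0.011 to 0.40 in motor arrays. For single genes in EAE against healthy mice, 168 results lost and 8 gained a call under an alternative while 793 kept their side of the threshold; in motor arrays 63 lost and 31 gained one. The causes were not tested.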
